A study of Drosophila melanogaster with 23 samples.

Results

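Complex III of the respiratory chain, the cytochrome bc1 complex, takes electrons from ubiquinol and passes them to cytochrome c, a small soluble haem protein that carries them on to cytochrome c oxidase. The transfer is coupled to the movement of protons across the inner mitochondrial membrane, and heart muscle, which contracts without rest, depends on it for ATP. Cytochrome c1 and the Rieske iron-sulfur protein carry redox centres, a pair of large core proteins faces the matrix, and small subunits without redox centres surround them. Here the first 4 are together called core and the small subunits supernumerary. This grouping was made for the description, with the changes known. The description covers 10 genes, chosen by symbol with earlier results of these data known: 9 nuclear genes of complex III subunits and the cytochrome c gene Cyt-c-p. All 10 were found by their current symbols among the 17104 symbols of the count tables, and all 10 had enough counts to be tested in every comparison. Cytochrome b, the mitochondrially encoded subunit, was not analysed here.

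Hearts dissected from Drosophila melanogaster were profiled by bulk sequencing of stranded mRNA libraries. The 5 groups were hearts labelled LamC RNAi at 1 week of age (5 libraries), attp2 at 5 weeks (5) and at 1 week (5), and w1118 at 5 weeks (4) and at 1 week (4). Both w1118 and attp2 are control strains. Flies labelled LamC RNAi carry an RNA interference construct against Lamin C, a nuclear lamina protein, driven from the promoter of Hand, a heart transcription factor gene. Their strain label also names attp2, and attp2 at 1 week is their control. The study asked which genes change with age in each control strain and which of them also change on Lamin C RNAi. Whether the libraries of a group came from separate animals is not in the labels, and each p-value therefore reflects variation among libraries, which can be technical. Counts for w1118 and for the other 3 groups were deposited in separate tables, so strain and table cannot be told apart and levels were compared within a table.

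Libraries held 21.8 to 90 M counts (M, mega), of which the 10 genes took 0.166% to 0.265%. Heart and muscle transcripts were abundant in every group: the summed level of 9 cardiac genes averaged 400 to 666 CPM (counts per M counts, on the TMM scale of edgeR within each table), and that of 10 muscle contractile genes 7604 to 13080 CPM. Genes of fat body and oenocytes, which lie against the fly heart, summed to 130300 to 234500 CPM, whereas 5 flight muscle genes summed to at most 9.21 CPM. In these bulk libraries, fewer cells of a type and less RNA per cell cannot be told apart. A total of 4 libraries stood apart by transcripts of 12 gut genes. These were attp2 at 5 weeks library 3 (20170 CPM) and library 4 (977 CPM), attp2 at 1 week library 3 (13910 CPM) and LamC RNAi library 3 (776 CPM), whereas the other 19 libraries held 22.8 to 243 CPM. The LamC transcript itself did not separate the RNAi libraries from their control: it was at 154.8, 199.5, 87.4, 172 and 132 CPM in the libraries labelled LamC RNAi, against 186, 222, 138, 148 and 163 CPM in attp2 at 1 week. The 2 groups overlapped, and the log2 fold change was -0.20 (edgeR, adjusted p = 0.628), so the transcript level did not check the label.

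In their positions on the dm6 assembly, as given by the BDGP6.54 annotation, the 10 genes are spread over the X chromosome and both major autosomes. UQCR-C1 (FBgn0038271) lies on chromosome arm 3R at 14890231 to 14892387 on the plus strand, and UQCR-C2 (FBgn0250814) on 3L at 16584124 to 16586111, plus strand. Cyt-c1 (FBgn0035600) is on 3L at 5360211 to 5362798, plus strand, and RFeSP (FBgn0021906) on 2L at 1612429 to 1614160, minus strand. Among the supernumerary genes, UQCR-14 (FBgn0030733) is on X at 16286288 to 16286988, UQCR-Q (FBgn0036728) on 3L at 17474761 to 17476124 and UQCR-11 (FBgn0260008) on 3L at 25120709 to 25126171, all on the plus strand. UQCR-6.4 (FBgn0034245), on 2R at 17572096 to 17572784, and ox (FBgn0011227), on 2R at 12757133 to 12757529, are on the minus strand. Cyt-c-p (FBgn0284248) is on 2L at 16719932 to 16722644, plus strand, directly downstream of its paralogue Cyt-c-d. A total of 5 genes overlap a neighbour on the opposite strand, and whether counting used strand is not stated in the labels. These neighbours were far lower: CG14352 averaged 1.69 CPM beside RFeSP at 255 CPM, Syx8 33.0 beside UQCR-C2 at 343, CG32576 12.4 beside UQCR-14 at 154, POSH 17.8 beside UQCR-6.4 at 61.4 and mRpL18 8.40 beside ox at 73.2. UQCR-Q overlaps CG46525 on its own strand.

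The genes were expressed at unequal levels, and the highest and the 2 lowest places were held by the same genes in every group. Per kilobase of exon, Cyt-c-p had the highest level in all 5 groups, at 329 ± 14.9 CPM per kb in LamC RNAi hearts (SD, n = 5), 361 ± 28.0 in attp2 at 5 weeks (n = 5), 449.5 ± 69.5 in attp2 at 1 week (n = 5), 415 ± 32.8 in w1118 at 5 weeks (n = 4) and 517 ± 42.5 in w1118 at 1 week (n = 4). Its range did not overlap that of the next gene in any group. UQCR-11, the fly counterpart of the mammalian hinge protein that sits beside cytochrome c1, was lowest in all 5 groups at 33.3 to 39.6 CPM per kb. Next lowest was UQCR-6.4 at 95.04 to 123 CPM per kb. Between these ends the middle of the order was not resolved everywhere. In w1118 at 5 weeks, 6 neighbouring pairs from UQCR-14 (289.7 CPM per kb) down to UQCR-Q (168) overlapped in range. Next below Cyt-c-p in attp2 came UQCR-14 (264) and then UQCR-C1 (211) at 5 weeks, with separate ranges, whereas at 1 week UQCR-C1 (328) stood above UQCR-14 (309.9) with overlapping ones. With the longest transcript in place of the summed exons, only the lengths of UQCR-11 and UQCR-Q changed, and UQCR-11 was still lowest at 49.5 to 59.0 CPM per kb.

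Paralogues of the 10 genes had very few counts. Cyt-c-d, which in flies serves sperm development and caspase activation in the testis, had 0 to 38 counts in a library, Cyt-c1L 0 to 12, and UQCR-14L 0 in all 23 libraries. UQCR-11L was the most abundant, at 21 to 152 counts, or 1.01 to 1.73 CPM on average, and was not called in any comparison.

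**Figure D1:**
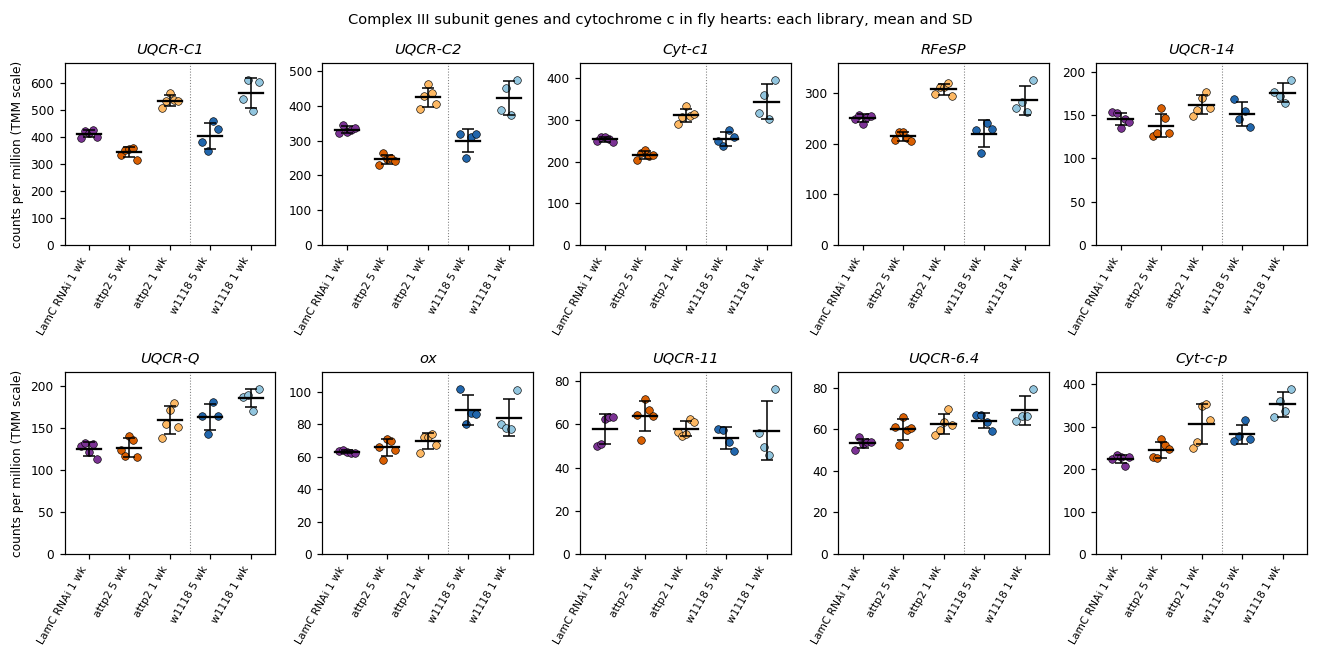
Level of each of the 10 genes in CPM (TMM scale, axis from 0) in LamC RNAi at 1 week, attp2 at 5 weeks and 1 week, and w1118 at 5 weeks and 1 week. Points are libraries, the horizontal line is the mean and the bars are 1 SD; the dotted line separates the 2 count tables. In attp2 the 4 core genes (UQCR-C1, UQCR-C2, Cyt-c1, RFeSP) form 3 separate levels, lowest at 5 weeks, intermediate in LamC RNAi and highest at 1 week, whereas ox, UQCR-11 and UQCR-6.4 do not separate by age.

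Age in attp2 was marked by lower transcripts of the core of complex III. At 5 weeks, against 1 week, 7 of the 10 genes fell and 0 rose, where 10.5% of the 10044 genes tested were lower (edgeR quasi-likelihood test, adjusted p under 0.05). At an unadjusted p under 0.05, 7 were lower (16.3% of all genes tested) and 0 higher, and DESeq2 also called 7 lower (13.5% of all genes) and 0 higher. The median log2 fold change was -0.58 for the 4 core genes and -0.08 for the 5 supernumerary genes, against 0.03 over all genes tested. The groups did not overlap for 4 of the 10 genes, all of them core genes, where 8.7% of all genes had every 5 week library below every 1 week library.

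UQCR-C2, one of the large core proteins on the matrix side, showed the largest change of the 10. It was at 231, 265, 247, 250.5 and 240.1 CPM in attp2 at 5 weeks, against 389.6, 427, 462, 436 and 406 CPM at 1 week. Every 5 week library was below every 1 week library by a wide gap. Its log2 fold change was -0.78 (SE 0.0588, adjusted p = 4.55e-06), so that the level fell by 41.9%, and by p-value it ranked 5 among all genes tested. UQCR-C1, its partner core protein, was at 334, 352, 357, 359.7 and 316 CPM at 5 weeks, against 509.9, 533, 564, 537 and 533 CPM at 1 week. The ages again lay apart, with a log2 fold change of -0.64 (SE 0.0544, adjusted p = 9.1e-06). The ratio of UQCR-C1 to UQCR-C2 was 1.40 ± 0.0662 at 5 weeks and 1.27 ± 0.0435 at 1 week (SD, n = 5 each), and the 5 week libraries (1.32 to 1.45) were above all 1 week libraries (1.22 to 1.31).

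Transcripts of the redox proteins fell by amounts similar to each other. Their log2 fold changes were smaller than those of UQCR-C2 and UQCR-C1, and the difference between genes was not tested. Cyt-c1, the haem protein that hands electrons to cytochrome c, was at 203, 221, 228.5, 213 and 216 CPM at 5 weeks, against 289.5, 308, 333, 311 and 314 CPM at 1 week, a log2 fold change of -0.52 (SE 0.0514, adjusted p = 2.18e-05). RFeSP, the Rieske iron-sulfur protein that takes electrons from ubiquinol, was at 207, 224, 223, 211.5 and 206 CPM at 5 weeks, against 297, 311, 312, 320.3 and 293 CPM at 1 week, also -0.52 (SE 0.0491, adjusted p = 1.78e-05). For both genes the 2 ages were fully separated, and for all 4 core genes the calls held whichever library was left out. The log2 fold changes over those 10 fits spanned -0.81 to -0.75 for UQCR-C2, -0.66 to -0.61 for UQCR-C1, -0.55 to -0.50 for Cyt-c1 and -0.54 to -0.50 for RFeSP.

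Supernumerary subunits had smaller log2 fold changes. UQCR-Q, the counterpart of mammalian UQCRQ, was at 123.5, 117, 141, 136 and 115.4 CPM at 5 weeks, against 138.5, 155.5, 172, 180.3 and 151 CPM at 1 week. The groups overlapped by 1 pair of libraries, and the log2 fold change was -0.33 (SE 0.0819, adjusted p = 0.0112). UQCR-14, the counterpart of mammalian UQCRB, was at 126, 129.9, 158, 146 and 129.6 CPM at 5 weeks, against 149, 156, 169.8, 177 and 158.5 CPM at 1 week, a log2 fold change of -0.23 (SE 0.0721, adjusted p = 0.036). That call was lost in 7 of the 10 fits that left out 1 library (5 weeks libraries 1, 2 and 5, 1 week libraries 2, 3, 4 and 5), with adjusted p-values of 0.0514 to 0.0918, and also with only the 2 groups in the fit (0.0688) or no filter on low counts (0.0535). The other supernumerary genes were not called. For ox, the log2 fold change was -0.08 (adjusted p = 0.399) with a 95% interval from -0.22 to 0.05, for UQCR-6.4 -0.06 (adjusted p = 0.614, interval -0.21 to 0.09) and for UQCR-11 0.14 (adjusted p = 0.35, interval -0.06 to 0.34). None of the 3 intervals reached a fall of 0.52, the smallest among the core genes.

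Cyt-c-p, the electron carrier downstream of the complex, had a smaller log2 fold change than any core gene, and the difference between genes was not tested. It was at 228, 225, 270.4, 257 and 247 CPM at 5 weeks, against 250.5, 263, 348, 353 and 316 CPM at 1 week. The ages overlapped, since 1 week libraries 1 and 2 were within the range of 5 weeks. Its log2 fold change was -0.32 (SE 0.0961, adjusted p = 0.0312), and the call was lost in 6 of 10 fits without 1 library (5 weeks libraries 1, 2 and 5, 1 week libraries 3, 4 and 5; adjusted p-values of 0.0606 to 0.0823). It was also lost with only the 2 groups in the fit (adjusted p = 0.0642) and without the libraries rich in gut transcripts (-0.34, adjusted p = 0.0803), a fit in which the 4 core genes kept their calls and 6 of the 10 genes were called lower. The ratio of Cyt-c-p to Cyt-c1 was 1.14 ± 0.0728 at 5 weeks and 0.982 ± 0.121 at 1 week (SD, n = 5 each), with overlapping ranges of 1.02 to 1.21 and 0.855 to 1.14.

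Other transcripts fell with the core genes at 5 weeks in attp2. The 10 muscle contractile genes summed to 7194 to 7881 CPM at 5 weeks, against 9424 to 13480 CPM at 1 week, and 6 of 10 were called lower. Set against that sum, complex III subunits were at 19.5 ± 1.65 CPM per 100 CPM of contractile genes at 5 weeks and 20.03 ± 2.79 at 1 week (SD, n = 5 each), a difference smaller than either spread. The 4 core genes alone were at 13.5 ± 0.966 CPM per 100 CPM of contractile genes at 5 weeks and 15.1 ± 2.14 at 1 week, with overlapping ranges of 12.4 to 14.67 and 11.5 to 16.8. Of the contractile genes, Mhc fell most, and it averaged 1258 CPM at 5 weeks and 2604 CPM at 1 week. The median log2 fold change of the 10 contractile genes was -0.34 (-1.05 to -0.15), beside -0.58 over core and -0.08 over supernumerary genes. All 8 haemocyte genes were lower, summing to 681 to 951 CPM at 5 weeks, against 2768 to 3705 CPM at 1 week. No contractile or haemocyte gene averaged 0 CPM. A total of 2 of 8 cardiac genes tested were called lower, H15 (-0.62, edgeR, adjusted p = 0.00382) and Doc3 (-0.69, adjusted p = 0.0203). The median log2 fold change of the 8 was -0.27 (-0.69 to 0.29). Cardiac genes summed to 307 to 461 CPM at 5 weeks and 325 to 531 CPM at 1 week, with overlap. Of the 9 fat body and oenocyte genes 1 was lower (148000 to 211700 CPM at 5 weeks, against 195200 to 274500 CPM at 1 week). Their part in the result was not tested.

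Age in w1118 gave the same directions for most genes with a wider spread. At 5 weeks, against 1 week, 2 of the 10 genes were called lower (3.7% of the 9631 genes tested were called lower) and 0 higher. At an unadjusted p under 0.05, 5 were lower (11.7% of all genes tested) and 0 higher, and DESeq2 called 5 lower (7.6% of all genes) and 0 higher. Log2 fold changes were below 0 for 9 of 10 genes, with a median of -0.46 over core and -0.11 over supernumerary genes, against 0.01 over all genes tested. The ages did not overlap for 5 of the 10 (7.91% of all genes), namely the 4 core genes and Cyt-c-p.

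UQCR-C2 was at 318, 250.3, 310.4 and 319 CPM in w1118 at 5 weeks, against 389, 450.1, 374 and 475 CPM at 1 week, a log2 fold change of -0.50 (SE 0.131, edgeR, adjusted p = 0.0432). UQCR-C1 was at 384, 348, 459 and 431 CPM at 5 weeks, against 541, 614, 498 and 607 CPM at 1 week, a change of -0.48 (SE 0.13, adjusted p = 0.0472). In both genes the ages did not overlap. The calls were close to the threshold. UQCR-C2 lost its call without any 1 of the 8 libraries (adjusted p = 0.0599 to 0.138), and UQCR-C1 without any but 5 weeks library 3 (0.0632 to 0.152), while the log2 fold changes stayed between -0.55 and -0.41. Upper-quartile scaling also ended both calls (0.0528 for UQCR-C2 and 0.0565 for UQCR-C1), and fitting without a filter on low counts ended that of UQCR-C1 (0.0543).

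Cyt-c1 was at 249.7, 236, 276 and 258 CPM at 5 weeks in w1118, against 316, 361, 303 and 397 CPM at 1 week. It missed the threshold with separated groups (-0.43, SE 0.123, adjusted p = 0.0557). RFeSP was at 227, 181, 241 and 228 CPM at 5 weeks, against 271, 281, 263 and 326 CPM at 1 week (-0.38, adjusted p = 0.0953), and Cyt-c-p at 266, 278, 315 and 270.5 CPM at 5 weeks, against 324, 361, 336 and 389 CPM at 1 week (-0.32, adjusted p = 0.109). Both had separated ages and no call, and DESeq2 called all 3 lower, with adjusted p-values of 0.00517 for Cyt-c1, 0.0285 for RFeSP and 0.0253 for Cyt-c-p. Supernumerary genes all overlapped between ages: UQCR-14 -0.22 (adjusted p = 0.244), UQCR-Q -0.19 (0.317), UQCR-6.4 -0.11 (0.567), UQCR-11 -0.09 (0.782) and ox 0.08 (0.742), as log2 fold changes with adjusted p.

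Marker levels also differed between ages in w1118. Muscle contractile genes summed to 7007 to 10780 CPM at 5 weeks, against 12130 to 14480 CPM at 1 week, with 2 of 10 called lower, and complex III subunits stood at 19.0 ± 1.95 CPM per 100 CPM of contractile genes at 5 weeks and 16.8 ± 2.05 at 1 week (SD, n = 4 each). The core genes alone were at 13.1 ± 1.201 at 5 weeks and 12.4 ± 1.60 at 1 week. Of the contractile genes, Mhc fell most, and it averaged 1522 CPM at 5 weeks and 3254 CPM at 1 week. The median log2 fold change of the 10 contractile genes was -0.37 (-1.10 to -0.19), beside -0.46 over core and -0.11 over supernumerary genes. Haemocyte genes summed to 894 to 1493 CPM at 5 weeks, against 2687 to 3187 CPM at 1 week, with 5 of 8 called lower. Of 8 cardiac genes tested, 2 were called lower, H15 (-0.76, adjusted p = 0.0231) and tin (-0.86, adjusted p = 0.0471), with overlapping sums of 539 to 740 CPM at 5 weeks and 598 to 718 CPM at 1 week. The median log2 fold change of the 8 was -0.78 (-1.49 to 0.25). The highest was that of Hand, which averaged 548 CPM at 5 weeks and 460 CPM at 1 week and made up most of the sums. Fat body and oenocyte genes summed to 109700 to 164500 CPM at 5 weeks, against 101300 to 168400 CPM at 1 week, with 1 of 9 called, fit, which rose (2.12, adjusted p = 0.000805). Gut genes summed to 79.2 to 243 CPM at 5 weeks, against 62.1 to 74.6 CPM at 1 week, with 1 higher and 1 lower of 9 tested. Their part in the result was not tested.

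The age effects of the 2 strains were compared as an interaction over the 18 control libraries, attp2 over w1118. Of the 10 genes, 0 were called (0.761% of 10387 genes were called in either direction), 0 had an unadjusted p under 0.05 (14.9% of all genes), and DESeq2 called 0 (4.19% of all genes). UQCR-C2 had the smallest p, with a difference of -0.26 on the log2 scale, a 95% interval of -0.53 to 0.01 and an adjusted p of 0.359. The difference for Cyt-c1 was -0.07 (interval -0.31 to 0.18) and for RFeSP -0.11 (interval -0.37 to 0.14). The intervals are wide, so the missing call does not show that the strains aged alike.

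**Figure D2:**
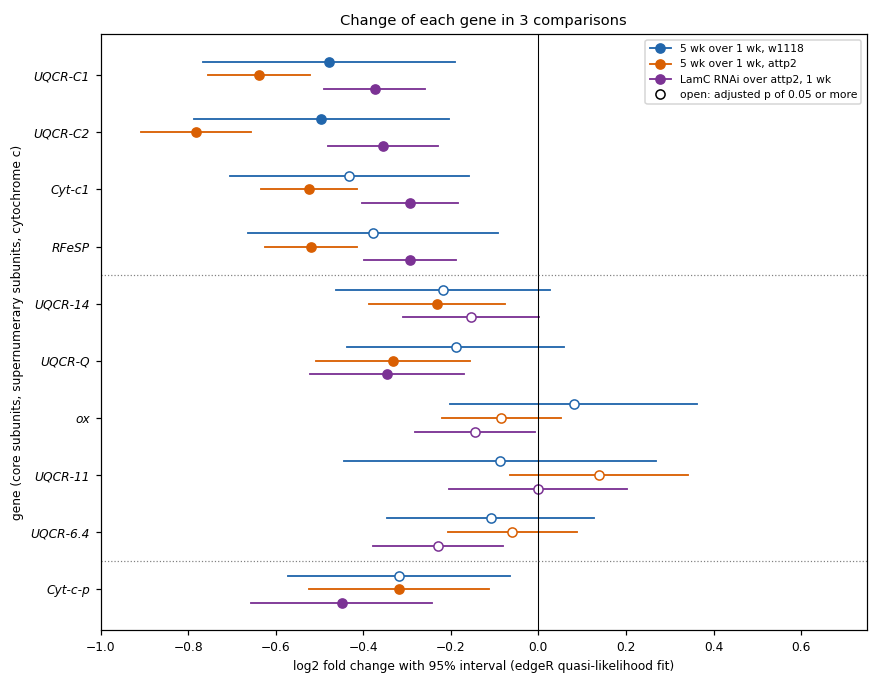
Log2 fold change of each gene with its 95% interval for 5 weeks over 1 week in w1118, 5 weeks over 1 week in attp2, and LamC RNAi over attp2 at 1 week. Filled points passed an adjusted p of 0.05. Core genes lie furthest left in attp2 age, down to -0.78 for UQCR-C2, while ox and UQCR-11 straddle 0 or come close to it in all 3 comparisons.

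Hearts labelled LamC RNAi also had lower complex III and cytochrome c transcripts at 1 week than attp2 hearts of the same age. Of the 10 genes, 6 were called lower (1.54% of the 10044 genes tested were) and 0 higher. At an unadjusted p under 0.05, 8 were lower (9.2% of all genes tested) and 0 higher, and DESeq2 called 7 lower (3.97% of all genes) and 0 higher. The median log2 fold change was -0.32 for core genes and -0.15 for supernumerary genes, against 0.03 over all genes tested. All 5 RNAi libraries lay below all 5 controls for 7 of the 10 genes (2.83% of all genes): the 4 core genes, UQCR-6.4, UQCR-Q and Cyt-c-p. Without the libraries rich in gut transcripts, 4 libraries against 4 remained and 0 of the 10 genes were called (75 of all genes, against 242 with them).

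UQCR-C1 was at 398, 422, 416, 428 and 401 CPM in LamC RNAi hearts, against 509.9, 533, 564, 537 and 533 CPM in attp2 hearts, a log2 fold change of -0.37 (SE 0.0542, edgeR, adjusted p = 0.00296). UQCR-C2 was at 323, 345, 324, 331 and 336 CPM in LamC RNAi hearts, against 389.6, 427, 462, 436 and 406 CPM in attp2 (-0.35, SE 0.0585, adjusted p = 0.00656). The RNAi libraries were tightly grouped and well below every control. Without the gut-rich libraries the changes were -0.36 (adjusted p = 0.0515) for UQCR-C1 and -0.31 (adjusted p = 0.104) for UQCR-C2.

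RFeSP was at 249, 256, 238, 253 and 255 CPM in LamC RNAi hearts, against 297, 311, 312, 320.3 and 293 CPM in attp2 (-0.29, SE 0.0490, adjusted p = 0.00704). Cyt-c1 was at 248.5, 260, 259, 254 and 248.1 CPM in LamC RNAi hearts, against 289.5, 308, 333, 311 and 314 CPM in attp2 (-0.29, SE 0.0513, adjusted p = 0.01). Neither gene's groups overlapped, and without the gut-rich libraries the changes were -0.27 for both, with adjusted p-values of 0.123 for RFeSP and 0.116 for Cyt-c1. Leaving out single libraries ended none of the 4 core calls.

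Cyt-c-p had the largest log2 fold change of the 10 genes in this comparison. It was at 223.5, 233, 229, 207 and 227 CPM in LamC RNAi hearts, against 250.5, 263, 348, 353 and 316 CPM in attp2, a change of -0.45 (SE 0.0962, adjusted p = 0.0254). The RNAi libraries were alike, whereas the controls fell into 2 lower and 3 higher ones. The call was lost in 5 of 10 fits without 1 library (LamC RNAi libraries 1 and 5, attp2 libraries 3, 4 and 5; adjusted p = 0.0541 to 0.077), with only the 2 groups in the fit (0.0662) and without the gut-rich libraries (-0.41, adjusted p = 0.144). The ratio of Cyt-c-p to Cyt-c1 was 0.883 ± 0.0388 in LamC RNAi hearts and 0.982 ± 0.121 in attp2 hearts (SD, n = 5 each), with overlapping ranges.

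Among the supernumerary genes, UQCR-Q was called lower. It was at 128.5, 133, 121, 131 and 113 CPM in LamC RNAi hearts, against 138.5, 155.5, 172, 180.3 and 151 CPM in attp2, with no overlap (-0.35, SE 0.0819, adjusted p = 0.0406). This call was lost in 8 of 10 fits without 1 library, all but those without LamC RNAi library 4 or attp2 library 1 (adjusted p = 0.0537 to 0.121). It was also lost with only the 2 groups in the fit (0.0704), without a filter on low counts (0.0616) and without the gut-rich libraries (-0.31, adjusted p = 0.203). UQCR-6.4 had separated groups but no call, at 50.03 to 56.04 CPM in LamC RNAi hearts against 57.4 to 69.7 CPM in attp2 (-0.23, adjusted p = 0.0992), and DESeq2 called it lower (adjusted p = 0.0234). UQCR-14 (-0.15, adjusted p = 0.262), ox (-0.14, adjusted p = 0.235 and an interval of -0.28 to -0.01) and UQCR-11 (-0.0011, adjusted p = 0.998, interval -0.20 to 0.20) overlapped.

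Of 10 contractile genes, 0 were called in LamC RNAi hearts against attp2 at 1 week by edgeR, and 0 had an unadjusted p under 0.05. They summed to 9877 to 12070 CPM, against 9424 to 13480 CPM in attp2. Complex III subunits stood at 15.5 ± 0.955 CPM per 100 CPM of contractile genes in LamC RNAi hearts and 20.03 ± 2.79 in attp2 hearts (SD, n = 5 each), and attp2 library 5 alone, at 15.2, lay within the RNAi range of 14.3 to 16.9. The core genes alone were at 11.4 ± 0.686 in LamC RNAi hearts and 15.1 ± 2.14 in attp2 hearts, where library 5 was again within the RNAi range. Haemocyte genes summed to 3425 to 5496 CPM in LamC RNAi hearts, against 2768 to 3705 CPM in attp2, with 1 of 8 called higher. Fat body and oenocyte genes summed to 135500 to 248600 CPM against 195200 to 274500 CPM. Of these 9 genes, 0 were called by edgeR and 3 had an unadjusted p under 0.05 (19.2% of all genes). Of 8 cardiac genes tested, tin was called lower (-0.70, edgeR, adjusted p = 0.0374) and 0 higher. The median log2 fold change of the 8 was 0.19 (-0.70 to 0.50), and the cardiac genes summed to 383 to 577 CPM in LamC RNAi hearts, against 325 to 531 CPM in attp2. Their part in the result was not tested.

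Set beside attp2 at 5 weeks, young LamC RNAi hearts had more of the core transcripts. Strain label and age differ together there, and the comparison shares its libraries with both others in attp2. The 4 core genes were called higher, where 10.1% of genes tested were, and 0 of the 10 were called lower (9.15% of all genes). At an unadjusted p under 0.05, 1 was lower (16.7% of all genes), and DESeq2 called 0 lower (12.3% of all genes). Their groups did not overlap, as for 6.62% of all genes. Log2 fold changes were 0.43 for UQCR-C2 (edgeR, adjusted p = 0.000256), 0.26 for UQCR-C1 (0.00406), 0.23 for Cyt-c1 (0.00647) and 0.23 for RFeSP (0.00589), as adjusted p in parentheses. Without the gut-rich libraries, Cyt-c1 was no longer called (0.24, adjusted p = 0.0543). Cyt-c-p was at -0.13 (adjusted p = 0.353, interval -0.34 to 0.07). Contractile genes moved the same way, with 7 of 10 called higher, as did all 8 haemocyte genes, and their part was not tested. The core genes of LamC RNAi hearts lay between young and old attp2 hearts, without overlap on either side, whereas Cyt-c-p in LamC RNAi hearts overlapped that of old controls.

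Core transcripts were fewer relative to supernumerary ones at 5 weeks in both strains. The summed level of the 4 core genes over that of the 5 supernumerary genes was 2.21, 2.59, 2.08, 2.16 and 2.26 in attp2 at 5 weeks, against 3.21, 3.17, 3.13, 2.85 and 3.09 at 1 week. In w1118 it was 2.10, 2.06, 2.39 and 2.501 at 5 weeks, against 2.69, 3.07, 2.74 and 2.80 at 1 week. In LamC RNAi hearts it was 2.74, 2.82, 2.84, 2.78 and 2.85. In both strains every 5 week library was below every 1 week library. The RNAi libraries were above all of attp2 at 5 weeks, and overlapped with attp2 at 1 week through its library 4. The means were 2.26 ± 0.196 in attp2 at 5 weeks and 3.09 ± 0.142 at 1 week (SD, n = 5 each), 2.26 ± 0.215 in w1118 at 5 weeks and 2.82 ± 0.171 at 1 week (n = 4 each), and 2.81 ± 0.0483 in LamC RNAi hearts (n = 5). No p is given, because the split was made with the changes known. Of the core genes, UQCR-C2 has 1686 exon bases, UQCR-C1 1632, Cyt-c1 1521 and RFeSP 1.12 kb, whereas ox has 331, UQCR-14 523, UQCR-6.4 561, UQCR-Q 975 and UQCR-11 1613. Over all genes tested, the median log2 fold change with age in attp2 was 0.13 for genes of up to 1000 exon bases, 0.07 for 1000 to 2000 and -0.02 above 2000. In w1118 these medians were 0.10, 0.04 and -0.04. Among genes of complex I, cytochrome c oxidase and ATP synthase (37, 13 and 4 by length), they were -0.31, -0.44 and -0.48 in attp2. For the same genes in w1118 they were -0.21, -0.29 and -0.32. The part of transcript length in the ratio was not tested.

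**Figure D3:**
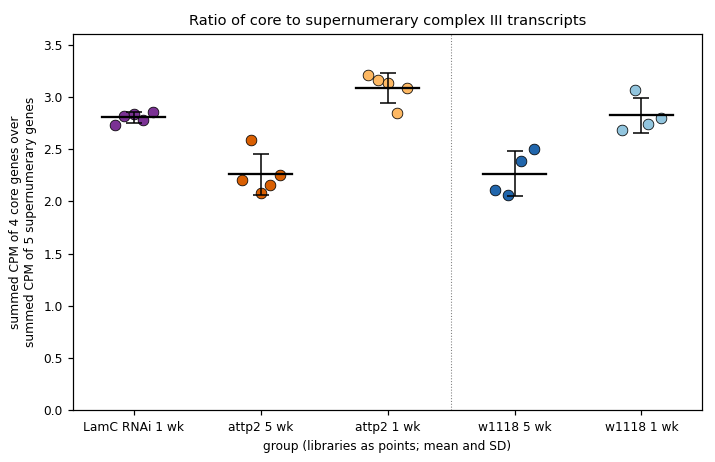
Ratio of the summed CPM of the 4 core genes to the summed CPM of the 5 supernumerary genes in each library (points), with the mean and 1 SD, for LamC RNAi at 1 week, attp2 at 5 weeks and 1 week, and w1118 at 5 weeks and 1 week. The ratio is 2.06 to 2.59 in the 9 libraries at 5 weeks and 2.69 to 3.21 in the 9 control libraries at 1 week.

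Of a list of genes for building complex III and attaching haem, 4 were found by symbol. Cchl, the haem lyase that attaches haem to cytochromes c and c1, was at 46.5, 43.7, 48.5, 48.7 and 45.1 CPM in attp2 at 5 weeks, against 59.2, 62.3, 61.9, 67.2 and 58.1 CPM at 1 week. It fell by 0.41 on the log2 scale (edgeR, adjusted p = 0.000641) and fell in w1118 too, to 52.1 ± 4.46 CPM at 5 weeks, against 74.5 ± 4.40 CPM at 1 week (SD, n = 4 each; -0.52, adjusted p = 0.0171). The counterpart of yeast Bcs1 (CG4908), which inserts the Rieske protein, fell in attp2 with age (-0.55, adjusted p = 0.0109), as did the counterpart of Uqcc1 (CG10075), an assembly factor for cytochrome b (-0.29, adjusted p = 0.0302). Neither was called in w1118 (-0.35, adjusted p = 0.422, for CG4908 and -0.06, adjusted p = 0.819, for CG10075). Ttc19 was called in neither strain. On LamC RNAi 0 of the 4 were called by edgeR, and 2 had an unadjusted p under 0.05 (19.2% of all genes). Cchl stood at -0.20 there (adjusted p = 0.108).

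Transcripts of enzymes that feed electrons into ubiquinone, and of the other complexes, were also lower in attp2 at 5 weeks than at 1 week. Of all genes tested, 10.5% were called lower there. Of 7 other ubiquinone reductases, 5 fell, with SdhA, the flavoprotein of succinate dehydrogenase, at -0.62 (edgeR, adjusted p = 2.42e-05), SdhD at -0.44 and SdhB at -0.38. Complex I had 25 lower and 1 higher of 32 genes tested (median -0.32), with ND-20, ND-51 and ND-39 at -0.47, -0.51 and -0.58. Cytochrome c oxidase, which receives electrons from cytochrome c, had 9 of 9 lower (median -0.31), with COX4 at -0.44, COX5A at -0.48 and COX7A at -0.32. ATP synthase had 12 of 13 lower (median -0.42), with ATPsynB at -0.65. Single genes spanned -0.72 to -0.07 among the other ubiquinone reductases, -0.58 to 0.27 in complex I, -0.48 to -0.23 in cytochrome c oxidase and -0.65 to -0.14 in ATP synthase, beside -0.78 to -0.52 for the core and -0.33 to 0.14 for the supernumerary genes of complex III. Of 8 ubiquinone synthesis genes tested, 0 were called by edgeR in either strain (1 at an unadjusted p under 0.05 in attp2, where 32.3% of all genes had one, and 0 in w1118).

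In w1118, 0 genes of complex I, cytochrome c oxidase and ATP synthase were called by edgeR with age, and 14 of 32, 3 of 9 and 5 of 13 had an unadjusted p under 0.05, as did 26.1% of all genes tested. Their medians were -0.23, -0.20 and -0.28. On LamC RNAi at 1 week, where 1.54% of all genes tested were called lower, 11 of 32 complex I genes fell (median -0.23). Among them were ND-51 at -0.31, ND-24 at -0.35 and ND-B18 at -0.37. All genes called in this comparison numbered 75 without the gut-rich libraries, against 242 with them. For ATP synthase, 4 of 13 fell (median -0.18), and for cytochrome c oxidase 0 of 9 were called (median -0.21). At an unadjusted p under 0.05, 8 of these 9 were lower, as were 9.2% of all genes. Of the other ubiquinone reductases 4 of 7 fell (SdhA -0.43, SdhD -0.40, SdhB -0.32), and of ubiquinone synthesis genes 2 of 8, Coq6 (-0.41) and Coq9 (-0.35). The comparisons of LamC RNAi and of age in attp2 share the attp2 libraries at 1 week, so their values are set side by side without a count of shared genes.

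**Figure D4:**
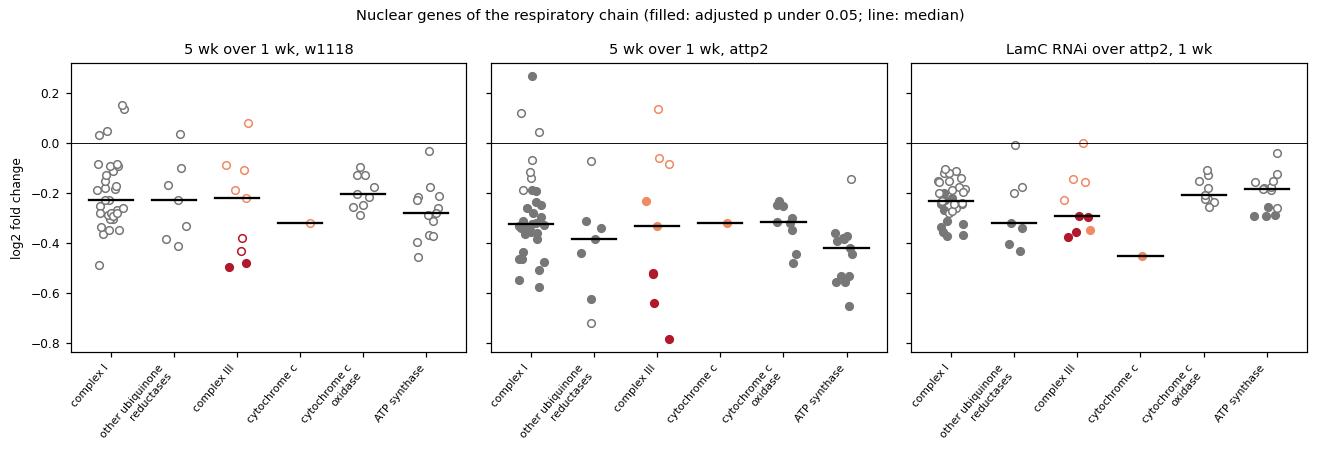
Log2 fold changes of nuclear genes of complex I, other ubiquinone reductases, complex III, cytochrome c, cytochrome c oxidase and ATP synthase in 3 comparisons. Each point is a gene, filled when its adjusted p was under 0.05, dark red for core complex III genes, orange for supernumerary genes and Cyt-c-p, grey for the rest, and the line is the list's median. Complex III spreads from -0.78 to 0.14 with age in attp2 and complex I from -0.58 to 0.27, while all 9 cytochrome c oxidase genes lie between -0.48 and -0.23.

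Outside the mitochondrion, cytochrome c is a trigger of caspase activation in mammals, and 7 genes of that pathway were tested. With age in attp2, 1 of 7 was called (20.1% of all genes were called in either direction), the caspase gene Drice, which rose (0.38, adjusted p = 0.0328). In w1118 1 of 7 was called (8.91% of all genes), the apoptosome gene Dark, which fell (-0.33, adjusted p = 0.0406). In the interaction, attp2 over w1118, Dark was called (0.53, edgeR, adjusted p = 0.0301), as were 0.761% of all genes in either direction. All genes called there numbered 11 to 271 without single libraries, beside 79, and strain and table cannot be told apart. In that interaction 3 others of the 7 had an unadjusted p under 0.05 (14.9% of all genes). On LamC RNAi against attp2 at 1 week 0 of 7 were called by edgeR (2.41% of all genes), and 2 had an unadjusted p under 0.05 (19.2% of all genes). Against attp2 at 5 weeks, Dronc, an initiator caspase gene, was higher (0.90, adjusted p = 0.0444), and Dark (-0.37, adjusted p = 0.00966) and Drice (-0.46, adjusted p = 0.0143) were lower, where 19.2% of all genes were called in either direction. Of 7 regulators of respiratory genes, 1 was called with age in attp2 (20.1% of all genes), ewg, which fell (-0.27, adjusted p = 0.00771). In w1118 1 was called (8.91% of all genes), mtRNApol, the mitochondrial RNA polymerase, which fell (-0.69, adjusted p = 0.0189). On LamC RNAi at 1 week 0 were called by edgeR (2.41% of all genes), and 4 had an unadjusted p under 0.05 (19.2% of all genes). Their log2 fold changes there ran from -0.61 to 1.32.

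Within groups, the 4 core genes varied together over all libraries, and the supernumerary genes were more mixed. In the attp2 and LamC RNAi libraries alone, core pairs and supernumerary pairs had close medians. Over 23 libraries, with each gene's log2 CPM centred on its group mean, Pearson's r between pairs of core genes had a median of 0.8 (6 pairs, 0.743 to 0.869). Between supernumerary genes the median was 0.633 (10 pairs, 0.195 to 0.737), and between a core and a supernumerary gene 0.403 (20 pairs, 0.0844 to 0.703). UQCR-Q had higher r with UQCR-C1 (0.703), RFeSP (0.623) and Cyt-c1 (0.587) than with UQCR-6.4 (0.456) and UQCR-11 (0.195). Cyt-c-p had a median of 0.59 with supernumerary and 0.423 with core genes. These are descriptions without a test, since the values share libraries, depth and dissection. Within the w1118 libraries alone the first 3 medians were 0.843, 0.69 and 0.462, and within the attp2 and LamC RNAi libraries 0.648, 0.641 and 0.329. Without w1118 at 1 week library 4, which was high for several of the genes, they were 0.773, 0.576 and 0.218.

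**Figure D5:**
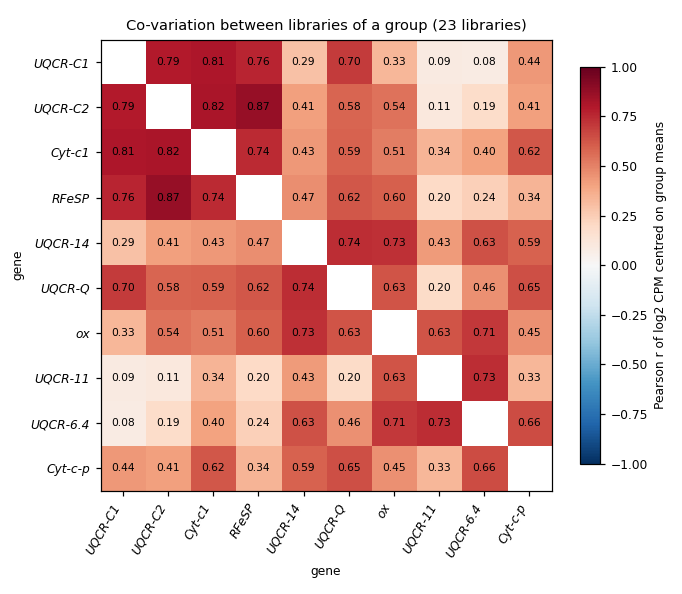
Pearson's r between the 10 genes over 23 libraries, after subtraction of each group's mean log2 CPM (pseudocount 0.5 CPM), from -1 in blue to 1 in red. The 4 core genes form a block at 0.74 to 0.87, and UQCR-C1 has its lowest values with UQCR-6.4 (0.08) and UQCR-11 (0.09).

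Among 9444 genes compared with the mean profile of the 10 in this way, 18 of the first 25 belonged to the respiratory and related lists, led by ATPsynO (r = 0.899), ATPsynF (0.895) and ND-B12 (0.892). The longest of these lists, complex I, held 33 genes. The 5 most similar genes outside the lists were bond (r = 0.873), Tango14 (0.871), LeuRS-m (0.843), a mitochondrial leucyl-tRNA synthetase, NP15.6 (0.841), a complex I subunit, and CG11781 (0.834). The profile held the 10 genes themselves, of which ox followed it most closely (0.837) and UQCR-11 least (0.601). The 18 list genes therefore include ox, which is part of the profile.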

How the data were processed

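The authors deposited raw counts per gene symbol in 2 tables, 1 for the 8 w1118 libraries and 1 for the 15 attp2 and LamC RNAi libraries. The submitters' processing notes name the dm6 build and the tools STAR, cutadapt and DESeq2, without versions. The sources used here do not give the counting program, whether it used strand, or the gene models. The authors also deposited values on a log2 scale, which equalled log2 of the count over the DESeq2 size factor, plus 1, and were not tested.

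The 10 genes and all gene lists were chosen with earlier results of these data known. The deposited counts were tested in R 4.3.3 by edgeR 4.0.16, quasi-likelihood (filterByExpr, TMM scaling, two-sided), with Benjamini-Hochberg adjustment over all genes tested and a threshold of 0.05. The w1118 libraries were fitted alone, the 15 others together with 3 group means, and the interaction over the 18 control libraries. The standard error is the size of the log2 fold change over the square root of F, and intervals are at 95%. Levels are CPM on the TMM scale, as mean ± SD. At 21.8 to 90 M counts per library, the 10 genes had at least 1277 counts each in every library. Replicates differed by a chi-square per gene of at least 62.9, so none was a copy. Of the symbols, 13264 matched a current name in BDGP6.54, 3700 an older one and 140 none. Alternatives were DESeq2 1.42.0, other scalings and filters, a replicate block, 2-group fits, and leaving out each library or those with gut transcripts over 5 times the table's median. Named genes are all 10, at most the 3 with the smallest adjusted p of each other list, and the 5 most similar genes outside the lists. The ratio's and correlations' alternatives were chosen after the data were seen.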

Additional observations from a re-analysis of the deposited data

Results flagged for a closer look

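A total of 55 combinations of a value and a group of 4 or 5 libraries were examined for a library far from the rest, and 3 stood out, where chance alone gives about 1 in 20. In w1118 at 5 weeks, library 2 had 250.3 CPM of UQCR-C2, while the other 3 libraries had 310.4 to 318.9. Without it, the log2 fold change of UQCR-C2 with age in w1118 was -0.42 (edgeR, adjusted p = 0.109), beside -0.50 with it (adjusted p = 0.0432). In w1118 at 1 week, library 4 had 79.4 CPM of UQCR-6.4, with the others at 63.8 to 66.5, and 101.4 CPM of ox, with the others at 77.0 to 80.3. Neither gene was called with age in w1118, with or without that library.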

How the results depend on the processing

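Over the single-gene tests, 835 values kept direction and side of the threshold under an alternative, 60 lost a call, 5 gained one and 30 turned direction, most of the last close to 0. The core genes of complex III kept their calls for age in attp2 and both LamC RNAi comparisons under every scaling, filter and single left-out library, and lost them for LamC RNAi at 1 week, with Cyt-c1 also lost against 5 weeks, without the gut-rich libraries. For age in w1118, the count of 2 genes called lower became 5 with DESeq2, 0 with upper-quartile scaling, 1 without a filter and 0 to 1 without single libraries, and all genes called numbered 1576 with DESeq2 and 298 to 1085 without single libraries, beside 858. Without single libraries UQCR-11 was at -0.18 to 0.077 and ox at -0.017 to 0.17 there. For LamC RNAi against attp2 at 1 week, all genes called numbered 692 with DESeq2, 132 with only the 2 groups, 75 without the gut-rich libraries and 103 to 395 without single libraries, beside 242. Calls were 87 higher and 155 lower by edgeR with all libraries, 60 and 72 with only the 2 groups, and 38 and 37 without the gut-rich libraries, where 0 of the 10 genes were lower. UQCR-11 was at 0.00073 with upper-quartile scaling, 0.0016 at a filter of 5 CPM and -0.036 to 0.049 without single libraries. Against attp2 at 5 weeks, 0 to 1 of the 10 were lower without single libraries (UQCR-6.4 without attp2 5 weeks library 2), UQCR-Q was at 0.091 without the gut-rich libraries and -0.045 to 0.028 without single ones, and ox at 0.0081 without the gut-rich ones. For the strain difference, all genes called numbered 435 with DESeq2, 133 at 5 CPM and 11 to 271 without single libraries, beside 79. UQCR-14 there was at -0.00038 with DESeq2 size factors, -0.011 with upper-quartile scaling, -0.024 without a filter, -0.069 without the gut-rich libraries and -0.043 to 0.065 without single ones; Cyt-c-p at -0.0080 without a filter and -0.040 to 0.089 without single libraries; UQCR-6.4 at -0.0037 to 0.12 without single libraries. The cause of these shifts was not tested. A replicate block gave 0 of the 10 genes lower with age in w1118 (adjusted p = 0.0691 for UQCR-C2 and 0.0797 for UQCR-C1) and 176 of all genes for the strain difference, and no other count moved by over 1.5 times. Same-numbered libraries correlated at -0.06 to 0.24 between ages in w1118, -0.03 to 0.86 between ages in attp2, 0.095 to 0.43 between LamC RNAi and attp2 at 1 week and -0.05 to 0.40 between LamC RNAi and attp2 at 5 weeks. Of these, 2 of 4, 3 of 5, 3 of 5 and 1 of 5 matched their own number best. No comparison had every pair over 0.1, so the samples were taken to share only a number. The pair at 0.86 was library 3 of each age in attp2, both rich in gut transcripts. A pairing by labels other than the replicate number was not tested.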
